A study of Homo sapiens with 4 samples.

Results

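The genes described here are 9 components of interleukin-6 signalling, namely the receptor genes IL6R and IL6ST, the kinase genes JAK1, JAK2 and TYK2, the transcription factor gene STAT3, and the regulators SOCS3, PIAS3 and PTPN11. They were chosen by gene symbol from the array annotation, 9 of 22395 genes that had a probe set with 1 symbol, and each was represented by 1 probe set. IL6R was picked because its signal was lower on the pcFLAG-hSTYK1 arrays, so its difference is given as a description that supports nothing. The arrays measured RNA from Huh7, an established line of human hepatocellular carcinoma cells. One group of 2 arrays came from cells transfected with pcFLAG-hSTYK1, a plasmid carrying human STYK1, a receptor-like kinase gene. The other group of 2 came from cells transfected with the plasmid pcFLAG. All cells thus received a plasmid, the transfected cells were not described as a selected clone, and the labels give no time after transfection. The labels do not say whether the replicates were separate cultures, so their spread, and any p-value resting on it, may be technical only.

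Interleukin-6 binds the receptor encoded by IL6R, which has almost no signalling capacity of its own, and the pair recruits the shared chain gp130, encoded by IL6ST. The kinases JAK1, JAK2 and TYK2 are bound to gp130 and phosphorylate it, STAT3 docks on the phosphorylated tail, is phosphorylated in turn and drives transcription in the nucleus. Hepatocytes are among the few cell types that carry the membrane receptor, and in the liver the pathway is known for switching on acute phase proteins. SOCS3 is induced by STAT3 and shuts the receptor complex down, PIAS3 holds back the DNA binding of STAT3, and the phosphatase SHP2, encoded by PTPN11, docks at the same site of gp130 as SOCS3. These steps act largely on proteins and their phosphorylation, which the arrays do not measure.

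Promoter sequences are shown for the genes whose transcripts the comparison turns on and for genes that STAT3 is known to act on. For 8 of the 9 genes RefSeq windows were at hand, 14 windows in all on the build GRCh38.p14, each reaching from 250 bases before a transcript start to 50 bases after it. They were searched on both strands for TTCNNNGAA, the palindromic letters that STAT proteins prefer, and for the variant TTANNNGAA, and the capitals mark a match to either motif. The palindrome reads the same on both strands, and the 2 motifs share their right-hand letters but cannot match at the same place. IL6R is shown because it was picked for its lower signal, IL6ST because it encodes its signalling partner, and SOCS3 because it is the feedback inhibitor.
IL6R (chr1:154405093-154405392, plus strand): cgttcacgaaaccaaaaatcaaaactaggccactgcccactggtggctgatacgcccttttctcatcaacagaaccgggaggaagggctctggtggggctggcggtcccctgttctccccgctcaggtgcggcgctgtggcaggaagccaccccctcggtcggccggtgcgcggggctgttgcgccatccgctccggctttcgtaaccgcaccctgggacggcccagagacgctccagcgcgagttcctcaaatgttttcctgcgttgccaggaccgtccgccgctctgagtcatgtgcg
IL6ST (chr5:55994914-55995213, minus strand): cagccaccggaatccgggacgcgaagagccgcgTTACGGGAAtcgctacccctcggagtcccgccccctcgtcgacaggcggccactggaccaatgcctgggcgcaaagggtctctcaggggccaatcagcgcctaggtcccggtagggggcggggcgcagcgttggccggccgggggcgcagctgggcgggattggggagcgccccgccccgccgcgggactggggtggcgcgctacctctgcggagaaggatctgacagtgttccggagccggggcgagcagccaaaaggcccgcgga
SOCS3 (chr17:78360876-78361175, minus strand): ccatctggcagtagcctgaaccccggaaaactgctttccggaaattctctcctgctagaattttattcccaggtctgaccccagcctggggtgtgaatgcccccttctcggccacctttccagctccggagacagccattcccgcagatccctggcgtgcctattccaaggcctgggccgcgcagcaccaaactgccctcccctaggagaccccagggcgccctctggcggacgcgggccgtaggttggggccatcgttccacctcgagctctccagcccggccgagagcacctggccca

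The IL6R window held no match to either motif, and neither did the SOCS3 window shown. Another SOCS3 window, chr17:78359618-78359917, is not shown and held no match either. In the IL6ST window the letters TTACGGGAA began 217 bases before the start. Over the 14 windows of these genes, 0 held the palindrome and 1 held the variant. Among all 35116 windows of the RefSeq table, 7.66% held the palindrome and 9.34% the variant. A match describes letters and not a bound site, and a window without one says nothing about the factor.

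A pair of liver genes from the list of acute phase genes under STAT3 is shown for comparison, since their windows hold the palindrome. HAMP encodes the iron hormone hepcidin and FGA the alpha chain of fibrinogen.
HAMP (chr19:35282278-35282577, plus strand): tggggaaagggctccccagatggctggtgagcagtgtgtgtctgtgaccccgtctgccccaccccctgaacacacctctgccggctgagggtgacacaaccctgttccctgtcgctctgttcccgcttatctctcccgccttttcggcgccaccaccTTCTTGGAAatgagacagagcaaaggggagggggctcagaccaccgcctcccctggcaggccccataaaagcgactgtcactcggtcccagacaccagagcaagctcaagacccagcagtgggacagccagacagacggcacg
FGA (chr4:154590693-154590992, minus strand): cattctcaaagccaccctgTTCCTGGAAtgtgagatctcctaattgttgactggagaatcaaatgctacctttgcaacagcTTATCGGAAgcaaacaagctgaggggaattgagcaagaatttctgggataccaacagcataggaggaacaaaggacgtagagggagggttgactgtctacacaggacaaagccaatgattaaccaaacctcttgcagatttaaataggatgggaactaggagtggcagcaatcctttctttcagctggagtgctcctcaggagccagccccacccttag

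The HAMP window held TTCTTGGAA, 93 bases before the start. The FGA window held TTCCTGGAA at 231 bases and the variant TTATCGGAA at 169 bases before the start. Of the 11 genes of that list with a window, 2 held the palindrome and 5 the variant. Over all 27305 genes with a window, 2560 held the palindrome and 3088 the variant. Their signals are given below with the other acute phase genes.

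STYK1 was read first as a check of the labels. It gave log2 signals of 7.40 and 7.86 on the pcFLAG-hSTYK1 arrays and of 0.26 and 0.61 on the pcFLAG arrays, so the plasmid's gene was present where the titles place it. A background level was taken from 432 probe sets of olfactory receptors, on the assumption, not tested here, that most of these genes are silent in Huh7 cells. Their 95th percentile lay between 0.726 and 0.780 on the 4 arrays. Array medians lay between 0.615 and 0.629, and the correlation between arrays was 0.985 to 0.987 within and between groups. Of 9 genes of hepatocytes and liver cancer, 8 were measured and all 8 lay above background, with ALB at 10.6 and 10.6 in pcFLAG-hSTYK1 cells and 10.5 and 10.4 in pcFLAG cells. Their summed log2 signal was 64.19 to 64.23 in pcFLAG-hSTYK1 cells and 63.78 to 64.16 in pcFLAG cells.

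The summed log2 signal of 8 of 9 immune genes was 6.11 to 6.51 in pcFLAG-hSTYK1 cells and 6.25 to 6.41 in pcFLAG cells, and by their means over the 4 arrays 3 of the 8 lay above background. The leukocyte marker PTPRC lay below background on all 4 arrays. CD14, a monocyte marker, lay above it on all 4, at 2.06 and 2.02 in pcFLAG-hSTYK1 cells and 1.98 and 2.23 in pcFLAG cells. The sum of 5 of 6 fibroblast and stellate cell genes was 2.81 to 2.93 in pcFLAG-hSTYK1 cells and 3.27 to 3.36 in pcFLAG cells, without overlap. That of 4 of 5 endothelial genes was 1.89 to 1.91 in pcFLAG-hSTYK1 cells and 2.03 to 2.13 in pcFLAG cells. By their means over the 4 arrays, 1 of the 5 and 0 of the 4 lay above background. PDGFRB, a receptor of stellate cells, read 0.57 and 0.73 in pcFLAG-hSTYK1 cells and 0.75 and 0.86 in pcFLAG cells, above the background level on both pcFLAG arrays alone. The collagen gene COL1A1 read 0.74 and 0.79 in pcFLAG-hSTYK1 cells and 0.83 and 0.93 in pcFLAG cells, above it on 3 arrays. The part of these markers in the results below was not tested.

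Over all 53617 probe sets limma called 1 at an adjusted p under 0.05, which is 0.00187% of those tested, and it was STYK1. That call was lost without any single array and with the replicate number as a block. None of the 9 genes was called, with adjusted p-values of 0.979 to 1 (limma). At an unadjusted p under 0.05 limma had 1 of the 9, IL6R, against 3.72% of all genes, and IL6R had been picked on this contrast. The means of 5 of the 9 were lower in pcFLAG-hSTYK1 cells, against 49.2% of all genes, and their median difference was -0.02, against 0.002 over all genes. With IL6R set aside, 4 of 8 were lower. Precision is limited by having 4 arrays: the median SE over all probe sets was 0.11 on the log2 scale.

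**Figure D1:**
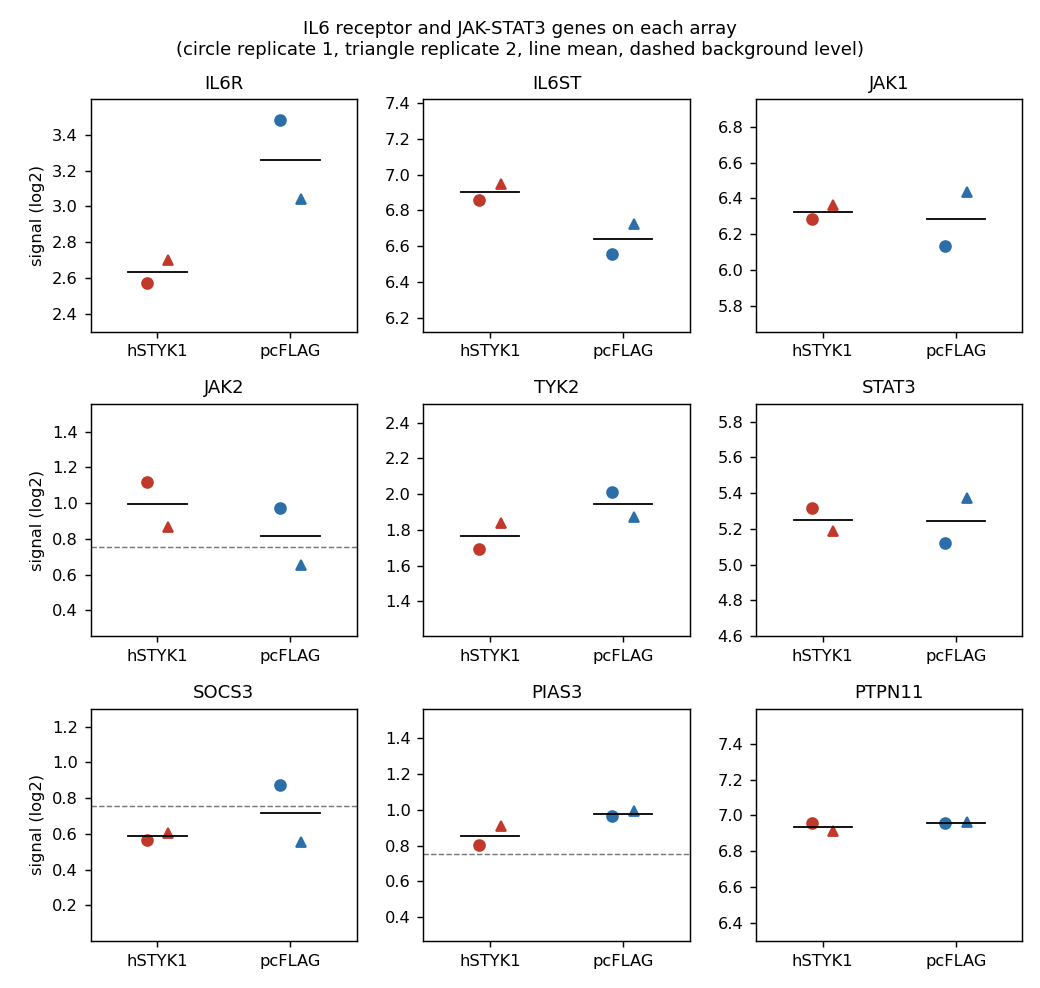
Log2 signal of each of the 9 genes on each array, with pcFLAG-hSTYK1 arrays in red and pcFLAG arrays in blue, replicate 1 as circles, replicate 2 as triangles and group means as lines. Every panel spans the same log2 range, and the dashed line is the mean background level of 0.753. IL6R, picked for its lower signal, shows the widest separation of the group means, while JAK1, JAK2, STAT3 and SOCS3 overlap.

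The receptor genes encode the step where signalling starts. IL6R had the lowest difference among the 9, which follows from its being picked for its lower signal, and IL6ST had the highest. IL6R, the chain that binds interleukin-6, read 2.57 and 2.70 on the pcFLAG-hSTYK1 arrays and 3.48 and 3.04 on the pcFLAG arrays. Both pcFLAG-hSTYK1 arrays lay below both pcFLAG arrays, and the pcFLAG pair lay further apart than the other. The means were 2.64 ± 0.09 in pcFLAG-hSTYK1 cells and 3.26 ± 0.31 in pcFLAG cells (SD, n = 2 each).

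The difference in IL6R was -0.63 ± 0.17 (SE), or 1.54-fold more signal in pcFLAG cells, which did not reach the threshold (limma, adjusted p = 0.979). It exceeded the larger gap between replicates, which was 0.44 between the pcFLAG arrays. The array pcFLAG replicate 1, the higher of that pair, carried part of it: without that array the difference was -0.41, and without pcFLAG replicate 2 it was -0.85. Among 11332 genes above background, 36 had a difference as low as that of IL6R or lower, a share of 0.318%, which describes how IL6R was picked. RefSeq lists a pseudogene, IL6RP1, and an antisense transcript, IL6R-AS1, and neither had a probe set of its own here, so whether either adds to the signal was not tested.

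IL6ST encodes gp130, the chain shared by most receptors of this cytokine family. It read 6.86 and 6.95 on the pcFLAG-hSTYK1 arrays and 6.55 and 6.72 on the pcFLAG arrays. The groups did not overlap, and here the pcFLAG-hSTYK1 arrays were the higher ones, opposite to IL6R. The difference was 0.27 ± 0.10 (SE), or 1.20-fold, which did not reach the threshold (limma, adjusted p = 0.979). Its 95% interval ran from -0.007 to 0.54, and the larger replicate gap was 0.17. Leaving out single arrays gave 0.18 to 0.35. Of the genes above background, 5.29% had a difference as high or higher.

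Among the kinases, JAK1, which is required for signalling by gp130, read 6.28 and 6.36 on the pcFLAG-hSTYK1 arrays and 6.13 and 6.43 on the pcFLAG arrays. The pcFLAG arrays lay on either side of the others. The difference was 0.04 with a 95% interval of -0.31 to 0.38 (limma, adjusted p = 0.999), which in folds spans 0.809 to 1.30. Its sign depended on single arrays, at -0.11 without pcFLAG replicate 1 and -0.0002 without pcFLAG-hSTYK1 replicate 2.

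JAK2, the kinase of the receptors for growth hormone and erythropoietin as well, read 1.12 and 0.87 on the pcFLAG-hSTYK1 arrays and 0.97 and 0.66 on the pcFLAG arrays. The groups overlapped, and the lower pcFLAG array was under the background level. The difference was 0.18 with a 95% interval of -0.23 to 0.59 (limma, adjusted p = 0.983), and leaving out single arrays gave 0.02 (without pcFLAG replicate 2) to 0.34 (without pcFLAG replicate 1), with 0.05 without pcFLAG-hSTYK1 replicate 1 and 0.30 without pcFLAG-hSTYK1 replicate 2. TYK2, a kinase that also serves interferon receptors, read 1.69 and 1.84 on the pcFLAG-hSTYK1 arrays and 2.01 and 1.87 on the pcFLAG arrays. The groups did not overlap, but their closest arrays, replicate 2 of either, read nearly alike. The difference was -0.18 ± 0.11 (SE) (limma, adjusted p = 0.979), just above the replicate gaps of 0.14 and 0.14. It was -0.11 without replicate 1 of either group, which is smaller than both gaps, and -0.25 without replicate 2 of either.

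STAT3, the transcription factor of the pathway, read 5.31 and 5.19 on the pcFLAG-hSTYK1 arrays and 5.12 and 5.37 on the pcFLAG arrays. The pcFLAG arrays were both the lowest and the highest of the 4. The means were 5.25 ± 0.09 in pcFLAG-hSTYK1 cells and 5.25 ± 0.18 in pcFLAG cells (SD, n = 2 each). The difference was 0.004 ± 0.12 (SE) (limma, adjusted p = 1), and its sign changed under quantile normalization and under median centring. The 95% interval was -0.32 to 0.33, or 0.802-fold to 1.25-fold. It describes STAT3 signal on these arrays. Since the spread behind it may be technical only, it sets no bound on the mRNA change between cultures.

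The regulators of STAT3 and of the receptor complex were lower by their means, by little. SOCS3, the feedback inhibitor, read 0.57 and 0.61 on the pcFLAG-hSTYK1 arrays and 0.88 and 0.55 on the pcFLAG arrays. Only pcFLAG replicate 1 was above the background level, so no fold is given for SOCS3, and its fitted difference of -0.13 turned to 0.03 without that array. PIAS3, which binds activated STAT3, read 0.80 and 0.91 on the pcFLAG-hSTYK1 arrays and 0.96 and 0.99 on the pcFLAG arrays. All 4 values lay just above background and the groups did not overlap, with a difference of -0.12 and a standard error of 0.09 (limma, adjusted p = 0.979). Without pcFLAG-hSTYK1 replicate 1 the difference in PIAS3 was -0.07, and without the other arrays it lay between -0.18 and -0.11.

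PTPN11, the gene of the phosphatase SHP2, read 6.96 and 6.91 on the pcFLAG-hSTYK1 arrays and 6.96 and 6.96 on the pcFLAG arrays. Its difference was -0.02 with a 95% interval of -0.25 to 0.20 (limma, adjusted p = 0.999), or 0.844-fold to 1.15-fold. The groups did not overlap, although the closest arrays of either group both read 6.96. RefSeq lists 5 PTPN11 pseudogenes and the IL6ST pseudogene IL6STP1, none with a probe set of its own here, and whether they add to the signals was not tested.

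**Figure D2:**
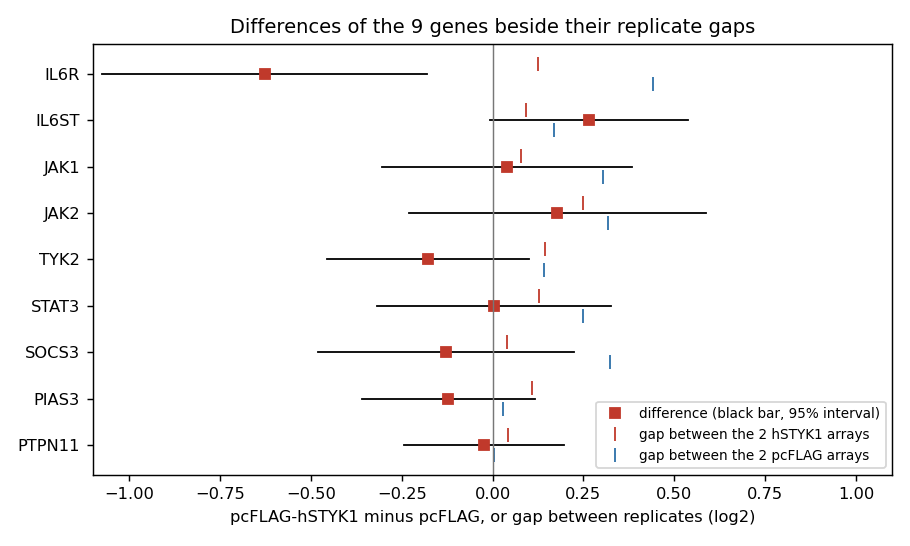
Difference in log2 signal, pcFLAG-hSTYK1 minus pcFLAG, of the 9 genes (squares) with 95% intervals from limma (black bars), and the gaps between the replicate arrays of each group as ticks. The interval of IL6R, which was picked for its lower signal, runs from -1.07 to -0.18, and those of the other 8 genes include 0.

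Over the 9 genes, the groups did not overlap for 5, namely IL6R, IL6ST, TYK2, PIAS3 and PTPN11, against 32.9% of all genes. Of these, 1 was higher in pcFLAG-hSTYK1 cells, against 16.7% of all genes, and 4 were lower, against 16.2%. The difference exceeded both replicate gaps for 4 genes, IL6R, IL6ST, TYK2 and PIAS3, against 21.7% of all genes. With IL6R set aside, the groups did not overlap for 4 of 8, with 1 higher and 3 lower. IL6ST, TYK2 and PIAS3 were then left with a difference above both gaps. Such shares over so few genes, 1 of them picked for its difference, are a description.

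The replicates of the pcFLAG group lay further apart than those of the pcFLAG-hSTYK1 group for 6 of the 9 genes, against 48.6% of all genes. These 6 were IL6R, IL6ST, JAK1, JAK2, STAT3 and SOCS3. The median gap over the 9 was 0.11 between the pcFLAG-hSTYK1 arrays and 0.25 between the pcFLAG arrays. Over all genes the medians were 0.12 between the pcFLAG-hSTYK1 arrays and 0.12 between the pcFLAG arrays. Over the genes above background they were 0.145 between the pcFLAG-hSTYK1 arrays and 0.136 between the pcFLAG arrays. The pcFLAG gap was the larger one for 47.9% of those genes. The wider pcFLAG gap did not run one way: pcFLAG replicate 1 was the higher of the pair for IL6R, JAK2, TYK2 and SOCS3 and the lower for the others.

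**Figure D3:**
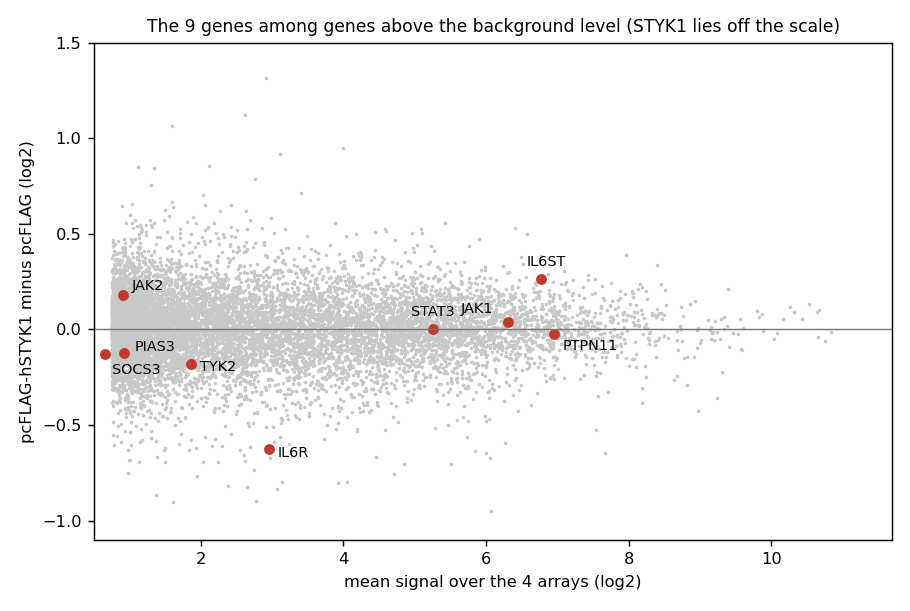
Difference in log2 signal, pcFLAG-hSTYK1 minus pcFLAG, against the mean log2 signal over the 4 arrays, for genes above the background level (grey) and the 9 genes (red, with SOCS3 drawn although its mean is below that level). IL6R, picked for its lower signal, lies at the lower edge of the grey points, where 36 of 11332 genes are as low or lower. The other 8 genes lie within the grey points.

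The genes whose pattern was most like that of IL6R over the 4 arrays were RN5S419, HSPBP1 and ATXN1L. Likeness was the root mean square distance between log2 signals after the mean of each gene was subtracted, and this choice draws on the same arrays as the choice of IL6R. RN5S419, annotated as a 5S ribosomal RNA locus, lay at a distance of 0.0352, with signals of 0.60 and 0.71 in pcFLAG-hSTYK1 cells and 1.56 and 1.02 in pcFLAG cells. Its values on both pcFLAG-hSTYK1 arrays were below the background level. HSPBP1, a cochaperone that releases nucleotide from HSP70, lay at 0.0371, with 2.23 and 2.33 in pcFLAG-hSTYK1 cells and 3.16 and 2.78 in pcFLAG cells. ATXN1L, a relative of ataxin 1 that binds the repressor CIC, lay at 0.0682, with 2.05 and 2.26 in pcFLAG-hSTYK1 cells and 2.99 and 2.41 in pcFLAG cells. All 3 shared the high value of pcFLAG replicate 1, and none passed (limma, adjusted p = 0.979 for each).

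**Figure D4:**
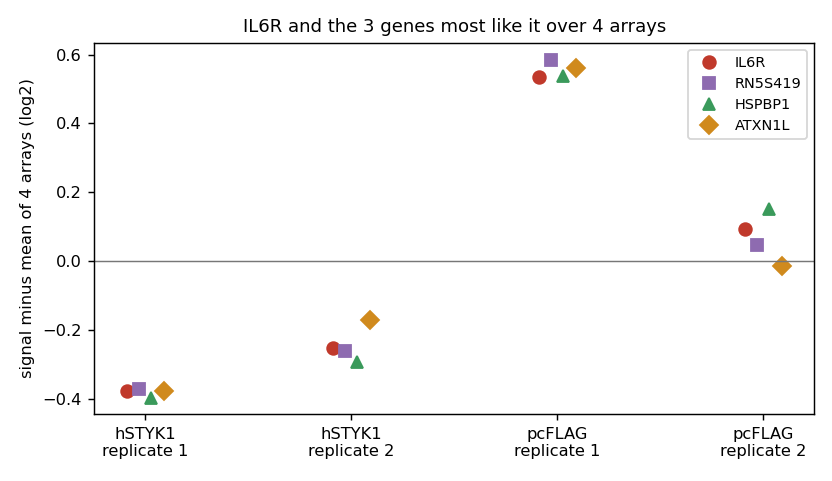
Log2 signal minus the mean over the 4 arrays, for IL6R and the 3 genes at the smallest distance from it, on each array. In all 4 genes pcFLAG replicate 1 is the highest array and pcFLAG-hSTYK1 replicate 1 the lowest.

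The rest of the pathway was read from 8 lists, with 75 of 85 listed genes measured. At the adjusted threshold 0 passed, and at an unadjusted p under 0.05 limma had 3 of the 75, TNFRSF1A higher and PIAS4 and SHC1 lower, against 3.72% of all genes. Lower means were found for 43 of the 75 and higher ones for 32, and the median was -0.03. The groups did not overlap for 29 of the 75, against 32.9% of all genes.

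Of 6 measured receptors of the same cytokine family, 3 had lower means and 3 higher ones (median -0.04). OSMR, the oncostatin M receptor that pairs with gp130, read 2.93 and 3.54 on the pcFLAG-hSTYK1 arrays and 3.65 and 3.63 on the pcFLAG arrays, so its difference of -0.41 came mainly from pcFLAG-hSTYK1 replicate 1. LIFR, the receptor for leukemia inhibitory factor, differed by 0.16, and IL31RA, below background on all 4 arrays, by 0.09. In the mean deviation of the list from each gene's mean, pcFLAG-hSTYK1 replicate 1 stood at -0.12 and pcFLAG-hSTYK1 replicate 2 at 0.07.

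Of the 8 measured ligands, 6 were lower and 2 higher, but 0 had a mean above background. IL6 itself read 0.47 and 0.68 in pcFLAG-hSTYK1 cells and 0.65 and 0.63 in pcFLAG cells, below the background level on all 4 arrays. By the naming rule the list gives IL31 at 0.16, the cardiotrophin gene CTF1 at -0.17 and OSM at -0.13, differences within background signals. CTF1 alone among these 3 was above the background level on any array, on pcFLAG replicate 1.

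The other JAK and STAT genes gave 4 higher and 1 lower of 5 measured, with a median of 0.11, and 2 had means above background. STAT5B, a factor of growth hormone signalling, read 1.82 and 1.54 in pcFLAG-hSTYK1 cells and 1.53 and 1.54 in pcFLAG cells, a difference of 0.15. STAT4 and the lymphoid kinase gene JAK3 differed by 0.19 and 0.11 with means below background.

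Of the 7 other SOCS genes, 4 had lower means and 3 higher ones (median -0.0004). SOCS5 read 2.22 and 2.24 in pcFLAG-hSTYK1 cells and 2.42 and 2.43 in pcFLAG cells, a difference of -0.19 ± 0.08 (SE) (limma, adjusted p = 0.979). Its replicates differed by less than the groups did. SOCS4 differed by -0.28 and SOCS6 by 0.26, again without overlap and without passing (limma, adjusted p = 0.979 for each). Unlike SOCS5, both had a replicate gap larger than the difference. It was 0.35 between the pcFLAG-hSTYK1 arrays for SOCS4 and 0.34 between the pcFLAG arrays for SOCS6. For SOCS6, replicate 2 of either group read 3.64.

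The other PIAS genes and the phosphatases were split evenly, with 4 of 8 lower. PTPN2, a phosphatase that removes phosphate from JAK1 and STAT3, read 3.68 and 3.22 in pcFLAG-hSTYK1 cells and 2.75 and 3.10 in pcFLAG cells. Both pcFLAG-hSTYK1 arrays were higher, but pcFLAG-hSTYK1 replicate 2 and pcFLAG replicate 2 lay close together. Its difference of 0.53 ± 0.21 (SE) was the largest in the 8 lists and did not pass (limma, adjusted p = 0.979). PIAS4, a SUMO ligase of the same family as PIAS3, read 3.80 and 3.82 in pcFLAG-hSTYK1 cells and 4.01 and 4.12 in pcFLAG cells, a difference of -0.25. PTPN6, the phosphatase SHP1 of blood cells, differed by -0.22.

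Of the 9 adaptors and sheddases, 6 had lower means and 3 higher ones (median -0.06). SHC1, an adaptor to the RAS pathway, differed by -0.28. ADAM17, the protease that sheds IL6R from the cell surface, read 4.36 and 4.30 in pcFLAG-hSTYK1 cells and 4.46 and 4.69 in pcFLAG cells, a difference of -0.25 ± 0.11 (SE) (limma, adjusted p = 0.979). GAB1, a docking adaptor that binds SHP2, differed by -0.09 and its groups overlapped.

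Acute phase genes under STAT3 were lower for 11 of 14 measured and higher for 3, against 49.2% of all genes lower, with a median of -0.06. None passed, and 0 had an unadjusted p under 0.05 (limma). By their means, 11 of the 14 lay above background. Of those 11, 9 were lower, against 48.2% of all genes above background. The rest of the list lay below the background level on every array, so their signs describe background signals. FGA read 9.11 and 9.29 in pcFLAG-hSTYK1 cells and 9.45 and 9.40 in pcFLAG cells, a difference of -0.22 ± 0.10 (SE). HAMP, whose window is printed above, differed by -0.40 ± 0.28 (SE), and its groups overlapped. C4BPA, which encodes a complement inhibitor, differed by -0.12. The mean deviation of the list was -0.08 and -0.005 on the pcFLAG-hSTYK1 arrays and 0.07 and 0.02 on the pcFLAG arrays. The groups did not overlap, and replicate 1 of each group stood furthest from 0. Such separation was not particular to this list. The mean deviations of the 9 genes, of the ligands and of the adaptors and sheddases also lay lower without overlap. Those of the other JAK and STAT genes lay higher without overlap, and in the remaining lists the groups overlapped. Without single arrays, 10 to 13 of the 14 were lower.

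General STAT3 target genes did not lean one way, with 8 of 18 lower and a median of 0.004. TNFRSF1A, a receptor for tumour necrosis factor, read 2.55 and 2.39 in pcFLAG-hSTYK1 cells and 2.19 and 2.22 in pcFLAG cells, a difference of 0.27 ± 0.10 (SE) (limma, adjusted p = 0.979). Cyclin D1, CCND1, differed by -0.20, and the kinase gene PIM1, a well-known STAT3 target, by 0.16. The mean deviation of the list was 0.10 and -0.09 on the pcFLAG-hSTYK1 arrays and -0.06 and 0.05 on the pcFLAG arrays, so the replicates of one group differed by more than the groups. The count of lower genes changed with single arrays: 12 without pcFLAG-hSTYK1 replicate 1, 3 without pcFLAG-hSTYK1 replicate 2, 11 without pcFLAG replicate 1 and 4 without pcFLAG replicate 2.

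**Figure D5:**
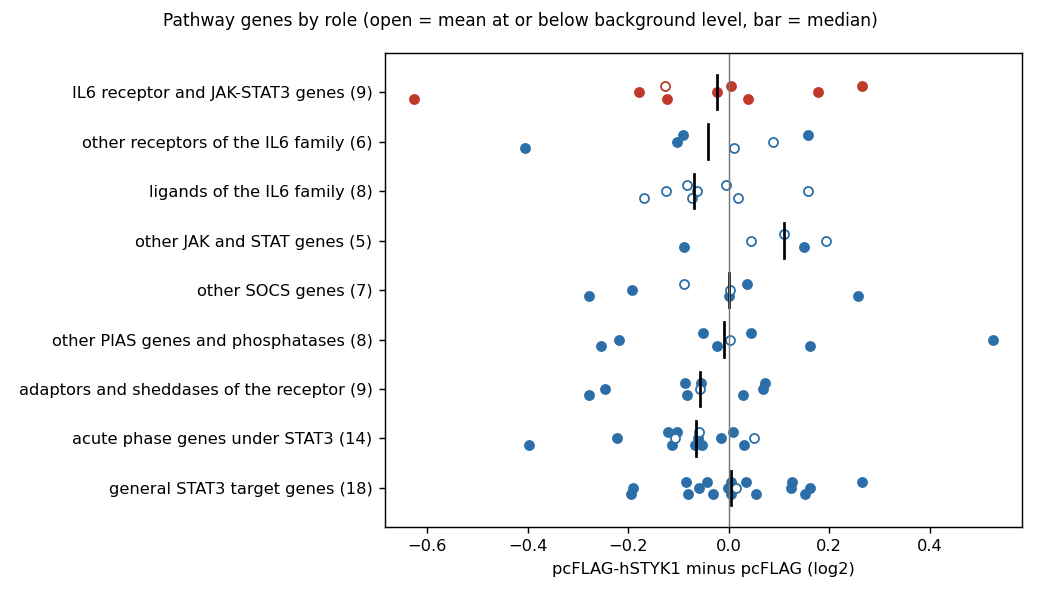
Difference in log2 signal, pcFLAG-hSTYK1 minus pcFLAG, for each measured gene of the pathway, grouped by role with the number of genes in brackets. Filled points have a mean above the background level, open points do not, and the black bar is the median of the group, which lies between -0.07 and 0.11 in all 9 rows.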

How the data were processed

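Biotin-labelled cDNA from Huh7 cells transfected with pcFLAG-hSTYK1 or pcFLAG was hybridised to Affymetrix arrays that cover whole transcripts, as the labels' protocols state. Per the labels, each array has its own column of values, deposited by the authors and read here as log2 signal. That base was inferred from the range. The submitters' processing notes name the Transcriptome Analysis Console, and how signals were summarized or normalized is not given in the sources used. Background correction that shrinks dim signals would lower the differences of dim genes. No further normalization was applied.

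Of 53617 probe sets, 23871 had 1 gene symbol (a repeated symbol counted once), 1842 several and 27904 none here. RefSeq gene IDs updated 90 symbols, and the brightest probe set on average stood for each of 22395 genes. No scan date or detection call was at hand, so no batch could be tested.

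Samples were grouped by title. Groups were compared with limma 3.58.1 in R 4.3.3 (lmFit, eBayes, two-sided, 2 residual and 2.71 prior degrees of freedom). P-values were adjusted after Benjamini-Hochberg across the whole table, at a threshold of 0.05, and the fit was tested on simulated data. Earlier simulations, drawn from the spread of each probe set and then from its moderated spread, missed the preset criteria, the first by recovering too few changed probe sets and the next by too many false calls. The simulation kept was drawn from the prior spread that limma estimated on these arrays, with criteria loosened after those failures, so passing it is a check of the code and weak evidence on the error rate of the calls. An exact permutation test was not used, since 2 arrays against 2 cannot go below a two-sided p of 0.333. Pairs of arrays held exactly equal values, as deposited and with no tolerance, at 170 to 242 probe sets, with no 2 columns alike. Named are the 9 genes, STYK1, from each pathway list the genes that passed and then up to 3 with the smallest p, and the 3 genes nearest to IL6R. IL6, the markers ALB, PTPRC, CD14, PDGFRB and COL1A1, and the related loci were named outside that rule after values were seen. The members, lists and background level were chosen with earlier results of these data known. Promoter windows are from RefSeq. Alternatives were an intensity trend, a replicate block, quantile normalization, median centring, a filter at the background level, the mean of a gene's probe sets and leaving out each array.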

Additional observations from a re-analysis of the deposited data

How the results depend on the processing

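All alternatives were listed as planned, but the members, lists and background level they use were chosen with earlier results of these data known. Of 89 results for the 9 genes under 10 alternatives, 0 passed the adjusted threshold and 7 changed sign, all in JAK1, STAT3 or SOCS3. STAT3 was -0.0047 under quantile normalization and -0.00052 under median centring. Leaving out single arrays gave -0.11 to 0.19 for JAK1, -0.12 to 0.13 for STAT3 and -0.29 to 0.034 for SOCS3, and it gave -0.85 to -0.41 for IL6R. The number of the 9 genes lower was 4 to 6. The STYK1 difference lost its call without any single array (6.96 to 7.42), which left 0 probe sets called (lowest 0, highest 0); the lone array of a group is then assumed to vary like the other group. With the replicate number as a block it was 7.19 at an adjusted p of 0.0637 (limma), with 0 probe sets called, 1 residual degree of freedom fewer, and no other call changed. Nothing in the labels pairs the numbers, and deviations of same-numbered arrays correlated at -0.04. SOCS3 could not be fitted at the background filter, since its mean lies below it. Each of the 9 genes had 1 probe set, so averaging probe sets left their differences as they were. Dim genes, SOCS3, JAK2 and PIAS3 among them, are limited by signal over background.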
